A study of Homo sapiens with 30 samples.

Results

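FOS, FOSL1, JUN, EGR1, DUSP4, DUSP6, SPRY2, SPRY4, ETV5 and PHLDA1 are transcripts by which the activity of the mitogen-activated protein kinase (MAPK) pathway is commonly read. They were taken by name, and all 10 were found among 60483 gene records per library and were kept among the 18424 genes that passed a filter on low counts. Transcripts were measured in 30 PANC-1 cultures, PANC-1 being a line of human pancreatic ductal adenocarcinoma epithelial cells, with 3 biological replicates in each of 10 groups. All cells were wild type, were not otherwise treated, and were assembled into tumoroids in medium with reduced serum. In 8 groups, here called protein-bearing hybrids, the tumoroids contained DSLBs (droplet-supported lipid bilayers), silicone oil droplets wrapped in a bilayer and used as synthetic cells. Their surface presented the ectodomain of PD-1, alone or beside a second one, which was that of TIGIT, LAG3, ICOS, CTLA4, CD40L, CD27 or CD2. The other groups were hybrids with plain DSLBs, which carried no protein, and DSLB-free tumoroids. A droplet is not a cell and receives no signal, the cells belong to 1 line, and no droplet presented a second protein without PD-1.

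The pathway runs through receptor tyrosine kinases, RAS, RAF, MEK and ERK. Active ERK enters the nucleus and switches on immediate early genes within minutes, without new protein synthesis, among them the transcription factors FOS, JUN, FOSL1 and EGR1. It also raises genes whose products damp the pathway. DUSP4 and DUSP6 are phosphatases that remove the activating phosphates from MAP kinases, and SPRY2 and SPRY4 (Sprouty proteins) act near RAS and RAF. ETV5 is an ETS transcription factor, and PHLDA1 encodes a pleckstrin homology protein that receptor signaling induces. Steady-state transcripts of these genes integrate synthesis and decay, and no kinase activity was measured in the RNA.

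The promoters below are shown because SPRY4, DUSP6 and SPRY2 were each lower in the mean of the protein-bearing groups than with plain DSLBs, a comparison that EGR1 did not pass. RefSeq promoters on GRCh38.p14 were matched for 7 of the 10 genes (FOS, JUN, EGR1, DUSP6, SPRY2, SPRY4 and PHLDA1), and each window is the 250 bases before the annotated start, 5′ to 3′ on the gene's strand. For SPRY2 the first of its annotated starts is shown, and the start used for SPRY4 lies inside the longer gene that GENCODE annotates. In EGR1, capitals mark the CArG box, the element bound by serum response factor, and its GGAA matches are not marked. In the other 3 windows, capitals mark GGAA, the core that ETS factors such as ETV5 recognize, on either strand (TTCC on the strand shown).
EGR1 (chr5:138465229-138465478, + strand): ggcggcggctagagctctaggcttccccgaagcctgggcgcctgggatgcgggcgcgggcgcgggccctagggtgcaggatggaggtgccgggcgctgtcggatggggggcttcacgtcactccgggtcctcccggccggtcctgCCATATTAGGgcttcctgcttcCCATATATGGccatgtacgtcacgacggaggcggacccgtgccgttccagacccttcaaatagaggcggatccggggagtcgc
SPRY4 (chr5:142324248-142324497, - strand): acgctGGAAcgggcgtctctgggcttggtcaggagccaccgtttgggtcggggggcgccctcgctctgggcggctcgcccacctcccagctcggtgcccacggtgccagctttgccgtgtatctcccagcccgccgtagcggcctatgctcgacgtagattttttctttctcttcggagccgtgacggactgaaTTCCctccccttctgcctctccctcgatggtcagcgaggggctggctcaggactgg
DUSP6 (chr12:89352502-89352751, - strand): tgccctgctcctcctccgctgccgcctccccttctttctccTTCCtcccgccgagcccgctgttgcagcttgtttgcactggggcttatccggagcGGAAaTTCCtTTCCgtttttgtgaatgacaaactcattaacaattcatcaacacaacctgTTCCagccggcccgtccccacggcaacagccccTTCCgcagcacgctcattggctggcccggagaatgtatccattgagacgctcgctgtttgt
SPRY2 (chr13:80341127-80341376, - strand): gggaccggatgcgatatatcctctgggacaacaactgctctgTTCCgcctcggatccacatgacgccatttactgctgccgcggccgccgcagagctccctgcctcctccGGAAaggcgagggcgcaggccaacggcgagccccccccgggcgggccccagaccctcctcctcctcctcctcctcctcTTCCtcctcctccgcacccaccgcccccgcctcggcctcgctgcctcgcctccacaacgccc

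Among the 250-base windows of the 7 genes only that of EGR1 held a CArG box. It held 2, the second of which shared 1 base with a GGAA match, whereas 1.16% of 35116 promoter windows of this length held at least 1. Bases farther from the start were not searched, so a gene without a match here can have such a box elsewhere. GGAA was found 6 times before DUSP6, 4 times each before EGR1 and PHLDA1 and 3 times before the SPRY2 start shown. It was found 2 times before SPRY4 and 1 time each before JUN and FOS, so its count did not set the lower genes apart from EGR1. That motif is common, since 92.7% of all windows held it. The longer core CCGGAA, a subset of the GGAA matches, was searched on both strands. A match on either strand was found in 14.5% of all windows and in those of SPRY2 and PHLDA1, 1 time each. No window of the 7 genes held the cyclic AMP response element TGACGTCA (1.65% of all windows) or the AP-1 site TGANTCA (6.57%), both searched on both strands. The GC box GGGCGG stood in the windows of JUN, SPRY4, PHLDA1, SPRY2 and FOS and in 42.6% of all windows. A match is a run of letters and not a measured site.

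Summed expected counts were 21.9 to 60.5 M per library (median 40.6 M), and levels are given as CPM (counts scaled to a common library size) on TMM-scaled libraries. Epithelial and carcinoma markers were present, with KRT7 lowest at up to 6.15 CPM. The summed level of KRT7, KRT8, KRT18, KRT19, EPCAM and VIM was 8744 to 10724 CPM in protein-bearing hybrids, 6778 to 7168 CPM in plain DSLB hybrids and 6501 to 7877 CPM in DSLB-free tumoroids. The summed level of 8 leukocyte markers was at most 1.39 CPM in any library, with CD3E and NKG7 at 0 in all of them, and that of 4 endothelial markers was at most 0.955 CPM. Of 6 fibroblast markers, COL1A1 and COL3A1, which the cells themselves express, carried the sum, at 360.3 to 732.3 CPM in protein-bearing hybrids, 751.5 to 813.0 CPM in plain DSLB hybrids and 751.3 to 1043 CPM in DSLB-free tumoroids, while COL1A2, DCN and PDGFRA were at most 0.23 CPM. MALAT1, a nuclear RNA, was at 1029 to 2869 CPM in protein-bearing hybrids, 894.9 to 967.0 CPM in plain DSLB hybrids and 1130 to 1189 CPM in DSLB-free tumoroids. The part of these shifts in the results below was not tested. No label gives a preparation or sequencing batch, so such a batch and the presence of protein cannot be told apart. PD-1/LAG3 replicate 3, DSLB-free replicate 2, PD-1 replicate 1 and PD-1/CTLA4 replicate 2 stood apart from their groups, and calls on the 10 genes that change without them are named below.

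Length-scaled levels ranked the 10 genes. The deposited TPM, medians over 30 libraries, were 93.9 for PHLDA1, 52.2 for JUN, 41.2 for ETV5, 23.7 for FOSL1, 19.2 for SPRY4, 10.04 for SPRY2 and 9.05 for DUSP6. EGR1 followed at 2.62 TPM and FOS at 1.06 TPM. DUSP4 was close to the limit of detection at 0.04 TPM, with 1 to 18 counts per library. No library of the 24 protein-bearing hybrids and 5 of the 6 control libraries (plain DSLB and DSLB-free) reached 0.246 CPM, the level the filter on low counts asks of 3 libraries, so DUSP4 was kept through the groups where it was higher. Its values are given as a description, and counts of genes that passed are given over the 9 others, for which 24 of 24 and 6 of 6 libraries reached that level.

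Over the 10 groups, 7 of the 9 genes other than DUSP4 differed in edgeR's quasi-likelihood test at an adjusted p under 0.05, against 41% of all genes tested. SPRY4 had the smallest adjusted p (7.68e-08), followed by ETV5 (2.16e-06), DUSP6 (8.56e-06), SPRY2 (0.00069), FOSL1 (0.0146), EGR1 (0.0238) and PHLDA1 (0.0343). JUN (0.0798, and 0.0194 with a replicate block) and FOS (0.773) did not pass. Within the 8 protein-bearing groups alone, none of the 9 passed, against 2.88% of all genes, and at an unadjusted p under 0.05 edgeR gave FOSL1 (adjusted p = 0.0653) and ETV5 (adjusted p = 0.0903), against 22.7% of all genes. JUN and FOS also did not pass within these groups.

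**Figure D1:**
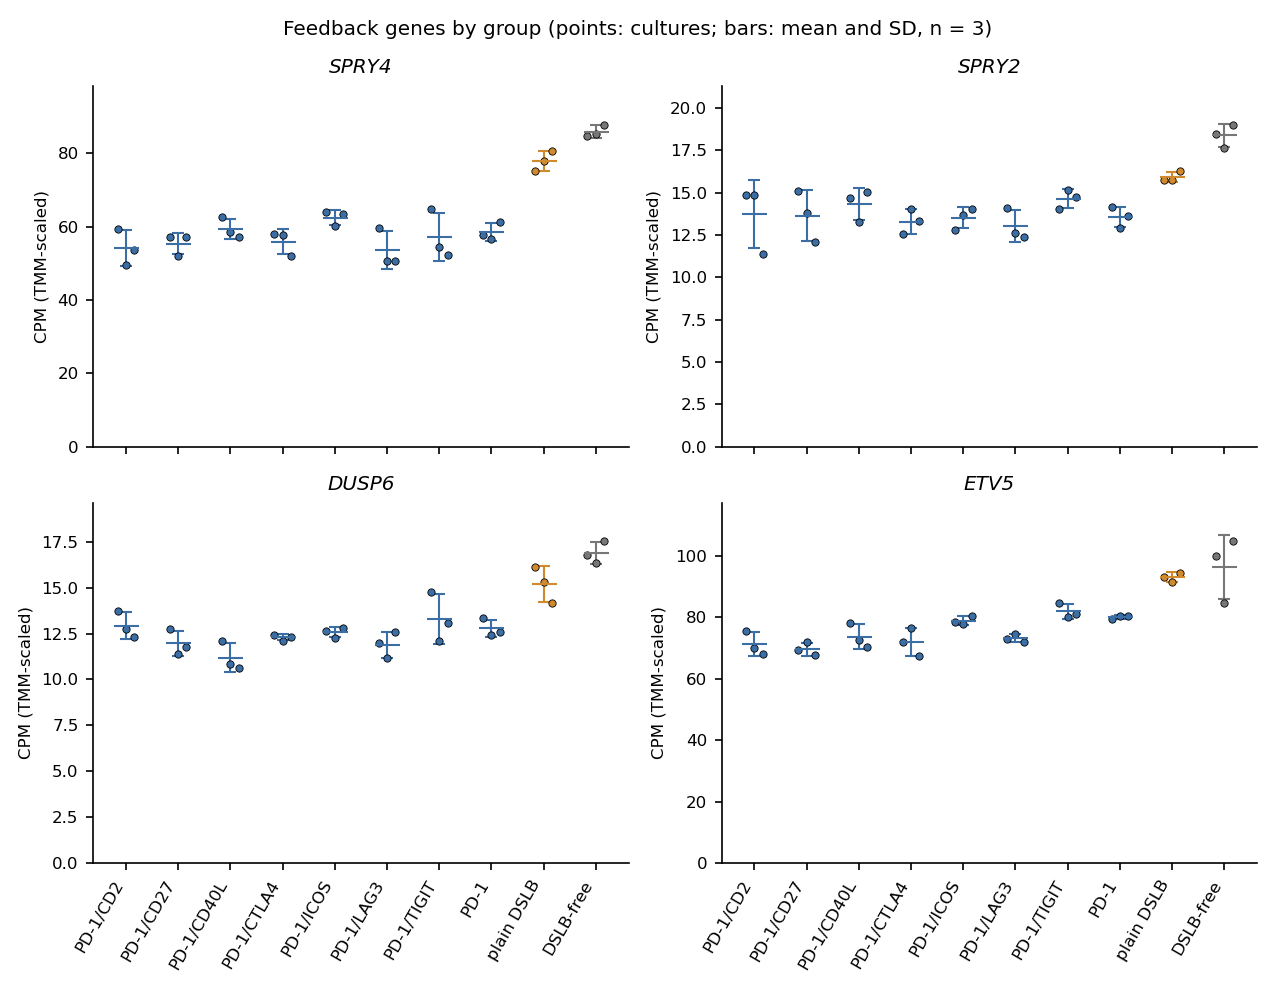
Levels of SPRY4, SPRY2, DUSP6 and ETV5 in CPM (y axes from 0) for the 10 groups (x axes), with 1 point per culture and the mean and SD of 3 as bars, protein-bearing hybrids in blue, plain DSLB hybrids in orange and DSLB-free tumoroids in grey. For SPRY4 all blue points lie below the control points, at 49.4 to 64.7 CPM.

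SPRY4 (chr5:142310427-142326455, - strand, GENCODE on GRCh38), the Sprouty protein that restrains growth factor signaling upstream of ERK, was lower with protein on the droplets in every group. Its level was 49.4, 57.5 and 64.7 CPM (lowest, median and highest of 24 libraries) in protein-bearing hybrids, against 75.2, 77.8 and 80.5 CPM in plain DSLB hybrids and 84.7, 85.3 and 87.8 CPM in DSLB-free tumoroids. No protein-bearing library reached a control library, which held for 5.11% of all genes tested in this direction. Fewer copies per cell and fewer cells that express a gene cannot be told apart in such bulk RNA. Averaged over the 8 groups, SPRY4 was 0.733-fold that in plain DSLB hybrids (log2 −0.45, standard error 0.056, edgeR adjusted p = 4.45e-07). PD-1/LAG3 hybrids were lowest, at 59.7, 50.7 and 50.6 CPM (log2 −0.54, adjusted p = 9.39e-06). PD-1/ICOS hybrids stood highest among those with protein, at 63.9, 60.1 and 63.4 CPM (log2 −0.32, adjusted p = 0.00377). In the deposited TPM, SPRY4 was 14.3 to 23.65 in protein-bearing hybrids, against 27.0 to 29.6 in plain DSLB hybrids and 30.2 to 33.1 in DSLB-free tumoroids, and the ranges again did not meet, although on log2(TPM + 1) the pair of PD-1/ICOS with plain DSLB hybrids lost its call (log2 −0.29, adjusted p = 0.0617).

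SPRY2 (chr13:80335976-80341126, - strand, GENCODE on GRCh38), its paralog, followed at a smaller distance. It was 11.4, 13.9 and 15.2 CPM in protein-bearing hybrids (lowest, median and highest), against 15.8, 15.7 and 16.3 CPM in plain DSLB hybrids and 18.5, 17.7 and 19.03 CPM in DSLB-free tumoroids, without overlap. The mean of the 8 groups was 0.862-fold that with plain DSLBs (log2 −0.21, standard error 0.0662, adjusted p = 0.0123). Taken pair by pair, SPRY2 passed only in PD-1/CTLA4 (log2 −0.26, adjusted p = 0.0266) and PD-1/LAG3 hybrids (log2 −0.29, adjusted p = 0.0145). Neither call held without each library in turn, and the average over the 8 groups lost its call without plain DSLB replicate 1 (adjusted p = 0.0528) or replicate 3 (adjusted p = 0.069).

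DUSP6 (chr12:89347235-89352501, - strand, GENCODE on GRCh38), the cytoplasmic phosphatase specific to ERK, was lower in 7 of the 8 pairs with plain DSLB hybrids. Its level was 10.6, 12.4 and 14.8 CPM in protein-bearing hybrids, against 16.1, 15.3 and 14.2 CPM in plain DSLB hybrids and 16.8, 16.3 and 17.5 CPM in DSLB-free tumoroids. The ranges met at 1 library, PD-1/TIGIT replicate 1, which stood above plain DSLB replicate 3. The mean of the 8 groups was 0.812-fold that with plain DSLBs (log2 −0.30, standard error 0.0564, adjusted p = 1.25e-04). PD-1/CD40L hybrids were lowest, at 12.1, 10.9 and 10.6 CPM (log2 −0.44, adjusted p = 1.37e-04). PD-1/TIGIT hybrids did not pass, at 14.8, 12.1 and 13.1 CPM (log2 −0.19, 95% interval −0.35 to −0.038, adjusted p = 0.0665). The pairs with PD-1/CD2, PD-1/ICOS and PD-1 alone lost their calls when 1 library was left out, with adjusted p up to 0.122.

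DUSP4, a nuclear MAP kinase phosphatase, gave 118 counts in all 24 protein-bearing libraries together, against 27 counts in the 3 plain DSLB and 40 counts in the 3 DSLB-free libraries. Its level was 0.0204, 0.13 and 0.239 CPM in protein-bearing hybrids (lowest, median and highest), against 0.265, 0.263 and 0.267 CPM in plain DSLB hybrids and 0.282, 0.192 and 0.318 CPM in DSLB-free tumoroids. The lowest group was PD-1/LAG3, with 1, 5 and 1 counts.

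ETV5 (chr3:186046314-186110318, - strand) encodes an ETS activator that ERK signaling induces, and it was lower than with plain DSLBs in all 8 pairs. The level was 67.4, 75.1 and 84.5 CPM in protein-bearing hybrids, against 93.2, 91.3 and 94.5 CPM in plain DSLB hybrids and 99.7, 84.6 and 104.7 CPM in DSLB-free tumoroids. The lowest control library, DSLB-free replicate 2, lay only just above PD-1/TIGIT replicate 1. The mean of the 8 groups was 0.806-fold that in plain DSLB hybrids (log2 −0.31, standard error 0.0467, adjusted p = 7.11e-06). PD-1/CD27 hybrids were lowest, at 69.3, 71.8 and 67.5 CPM (log2 −0.42, adjusted p = 2.14e-05). PD-1/TIGIT hybrids were nearest to the control, at 84.5, 79.9 and 81.1 CPM (log2 −0.18, adjusted p = 0.0376). This last call was lost without any 1 of the 6 libraries compared (adjusted p up to 0.141). That of PD-1 alone was lost without plain DSLB replicate 1 (adjusted p = 0.0524) or replicate 3 (adjusted p = 0.0522). With a gene length trend removed, PD-1/TIGIT (adjusted p = 0.229) and PD-1 alone (adjusted p = 0.0935) lost their calls. Without the filter on low counts, PD-1/ICOS, PD-1/TIGIT and PD-1 alone did (adjusted p = 0.0588, 0.245 and 0.0936). With limma on log2(TPM + 1), PD-1/ICOS and PD-1 alone did (adjusted p = 0.0526 and 0.0801).

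**Figure D2:**
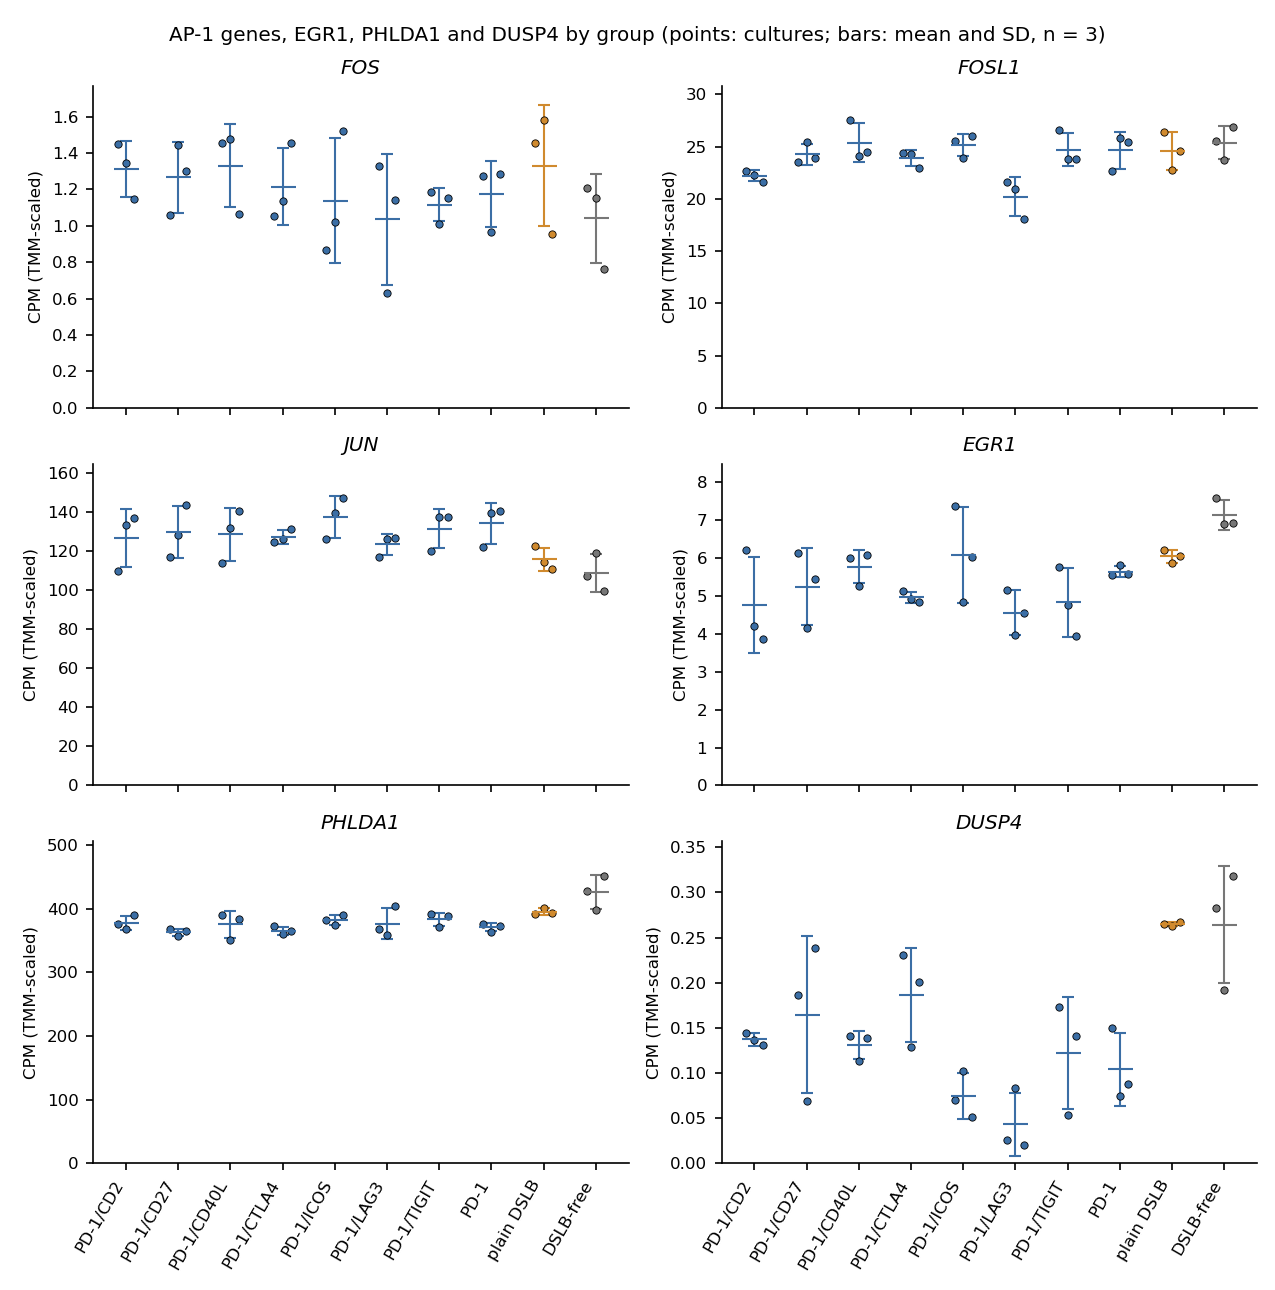
Levels of FOS, FOSL1, JUN, EGR1, PHLDA1 and DUSP4 in CPM (y axes from 0) for the same 10 groups (x axes), with 1 point per culture and the mean and SD of 3 as bars. The FOS values of all groups overlap, FOSL1 is lowest in PD-1/LAG3 hybrids at 20.2 CPM, JUN is highest in PD-1/ICOS hybrids at 137.3 CPM, and DUSP4 is at most 0.318 CPM in every culture.

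The 3 members of AP-1, a dimeric transcription factor, did not share a direction. JUN (chr1:58776845-58784048, - strand) was 109.7, 129.6 and 146.9 CPM in protein-bearing hybrids (lowest, median and highest), against 122.2, 114.3 and 110.7 CPM in plain DSLB hybrids and 107.3, 118.7 and 99.6 CPM in DSLB-free tumoroids. All 8 group means stood above both controls while the libraries overlapped. Replicate 1 was the lowest library in each of the 8 groups. The difference of the 8-group mean from plain DSLB hybrids was log2 0.16 (standard error 0.0698, adjusted p = 0.0682). It passed without the 4 libraries that stood apart (adjusted p = 0.0476), without the filter on low counts (adjusted p = 0.036), with a replicate block (log2 0.16, adjusted p = 0.0317) and with a gene length trend removed (log2 0.27, adjusted p = 0.0118), and was 0.04 on log2(TPM + 1) (adjusted p = 0.716). The largest single difference in this direction was in PD-1/ICOS hybrids, at 125.8, 139.2 and 146.9 CPM (log2 0.25, adjusted p = 0.0573). It passed with edgeR on these 6 libraries alone (adjusted p = 0.00254), where 39.5% of all genes passed, against 19.6% in the main fit.

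FOS (chr14:75278826-75282230, + strand), the classical partner of JUN, was low and did not differ detectably. It was 0.632, 1.17 and 1.52 CPM in protein-bearing hybrids, against 1.46, 1.58 and 0.953 CPM in plain DSLB hybrids and 1.21, 1.15 and 0.76 CPM in DSLB-free tumoroids, at 23 to 89 counts per library. The 95% interval of its difference between the 8-group mean and plain DSLB hybrids ran from −0.56 to 0.22 on the log2 scale, so a change of the size seen for SPRY4 lay within it. FOSL1 (chr11:65892049-65900573, - strand), the FRA-1 subunit, was 18.1, 23.9 and 27.5 CPM in protein-bearing hybrids, against 26.4, 22.8 and 24.6 CPM in plain DSLB hybrids and 25.5, 23.7 and 26.9 CPM in DSLB-free tumoroids. PD-1/CD2 hybrids lay just below all control libraries, at 22.7, 22.2 and 21.7 CPM, and did not pass (log2 −0.15 against plain DSLB hybrids, adjusted p = 0.154). PD-1/LAG3 hybrids were lowest and passed, at 21.6, 20.9 and 18.1 CPM (log2 −0.28 against plain DSLB hybrids, adjusted p = 0.00628). The lowest value is that of replicate 3, which stood apart, and without it the difference was −0.21 (adjusted p = 0.0671).

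EGR1 (chr5:138465479-138469303, + strand), a zinc finger factor induced through serum response factor, was 3.87, 5.21 and 7.37 CPM in protein-bearing hybrids, against 6.20, 5.87 and 6.06 CPM in plain DSLB hybrids and 7.58, 6.89 and 6.93 CPM in DSLB-free tumoroids. The 8-group mean did not pass against plain DSLB hybrids (log2 −0.22, 95% interval −0.46 to 0.03, adjusted p = 0.166). In 6 of the 8 protein-bearing groups replicate 1 was the highest library. PHLDA1 (chr12:76025447-76031776, - strand) was 351.0, 372.1 and 403.4 CPM in protein-bearing hybrids, against 391.2, 401.2 and 393.3 CPM in plain DSLB hybrids and 427.6, 398.1 and 451.2 CPM in DSLB-free tumoroids. Its difference from plain DSLB hybrids was within a narrow interval, log2 −0.16 to 0.004 for the 8-group mean (adjusted p = 0.132).

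**Figure D3:**
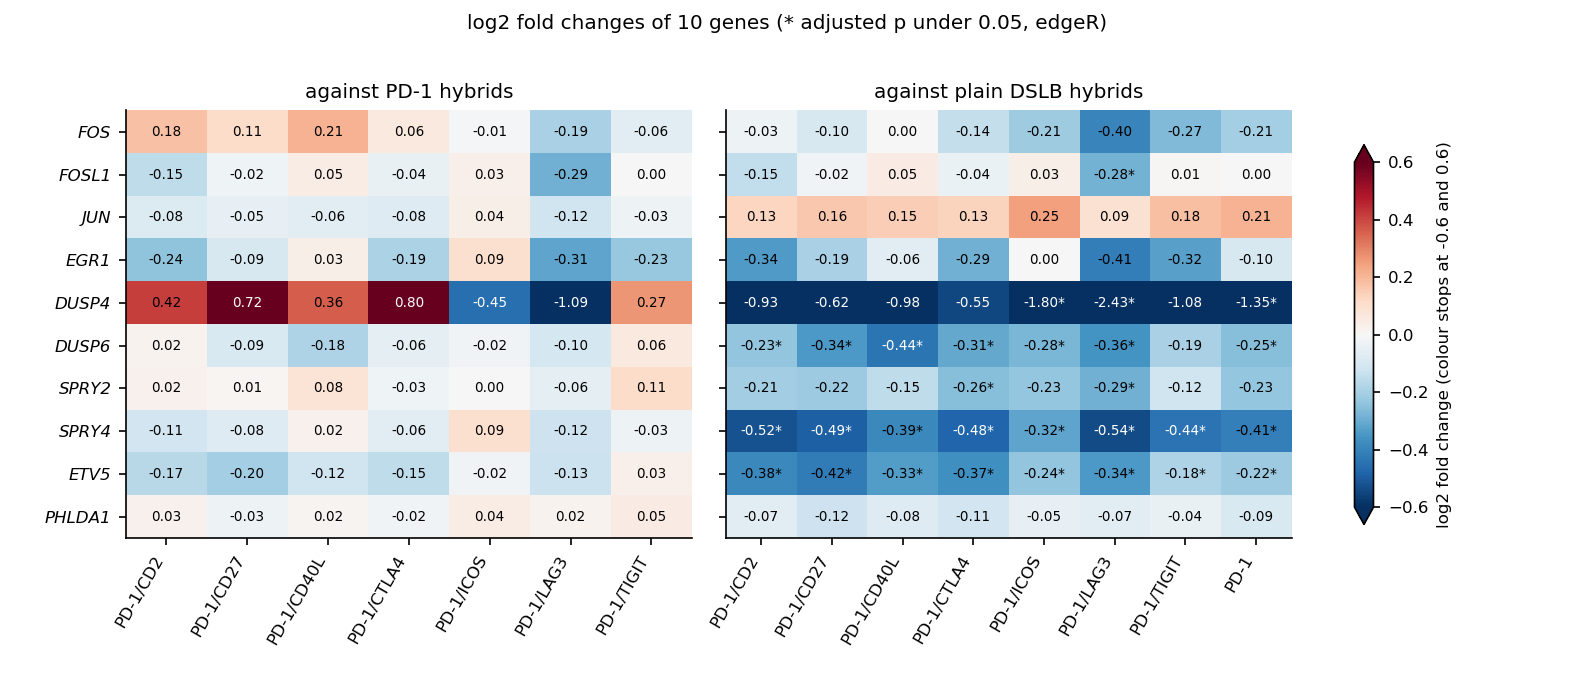
log2 fold changes of the 10 genes (rows) in each co-presenting hybrid over PD-1 hybrids (left) and in each protein-bearing hybrid over plain DSLB hybrids (right), with asterisks at an edgeR adjusted p under 0.05 and a colour scale that stops at 0.6 in either direction. The left map has no asterisk, and the 29 on the right, 3 of them of DUSP4, are all on negative values.

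Over all pairs with plain DSLB hybrids, 26 of 72 tests of the 9 genes passed, each of them lower with protein. The share of all genes that were lower was 15.4% with PD-1/CD2 (29.6% in either direction), 11.4% with PD-1/CD27 (23.8%), 12.3% with PD-1/CD40L (25.5%), 17.2% with PD-1/CTLA4 (34.2%), 9.8% with PD-1/ICOS (19.6%), 14.1% with PD-1/LAG3 (30.3%), 11.6% with PD-1/TIGIT (22.5%) and 10.7% with PD-1 alone (22%). At an unadjusted p under 0.05 there were 43 of 80 with DUSP4 included, 6 of them of DUSP4, which the filter kept through the controls. The shares of all genes were 40.1%, 35.2%, 36%, 43.3%, 31.1%, 40.6%, 35% and 34.7% in the same order of groups. PD-1/LAG3 hybrids had 5 of the 9 genes lower, PD-1/TIGIT hybrids 2, and the other groups 3 or 4. Without PD-1/LAG3 replicate 3 the 5 became 3, since FOSL1 (adjusted p = 0.0671) and SPRY2 (adjusted p = 0.073) no longer passed. SPRY4 and ETV5 were among the 4.88% of all genes that were lower in all 8 pairs. The 8 comparisons share the plain DSLB libraries, so their calls are not independent. Leaving out each library in turn kept 18 of the 26 calls in every fit, all 8 of SPRY4, 6 of 8 of ETV5 and 4 of 7 of DUSP6. For the mean of the 8 groups, 4 of the 9 genes were lower and none higher, against 18.7% of all genes lower and 36.9% in either direction. The median log2 difference of the 9 was −0.21, and that of all genes was 0.01.

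The question the study put to these libraries was whether a second ligand beside PD-1 changes transcription. For the 10 genes, 0 of 70 tests passed in edgeR, and 5 had an unadjusted p under 0.05. The share of all genes that passed in either direction was 1.23% with PD-1/CD2, 2.29% with PD-1/CD27 (2.05% higher), 0.0109% with PD-1/CD40L, 0.0434% with PD-1/CTLA4 and 0% with each of PD-1/ICOS, PD-1/LAG3 and PD-1/TIGIT. Without the 4 libraries that stood apart the share was 6.45% with PD-1/CTLA4 and 0.296% with PD-1/CD27. At an unadjusted p under 0.05 these shares were 15.4%, 17%, 11.3%, 13.3%, 10.2%, 5.71% and 3.7% in the same order. ETV5 came nearest, at 69.3, 71.8 and 67.5 CPM in PD-1/CD27 hybrids, against 79.4, 80.3 and 80.3 CPM in PD-1 hybrids (log2 −0.20, standard error 0.0639, adjusted p = 0.0852). The groups did not overlap, and the share of all genes that separated in this way was not counted. The difference passed with edgeR on these 6 libraries alone (adjusted p = 0.0369), where 6.1% of all genes passed. It also passed with DESeq2 on all libraries (adjusted p = 0.0367), where 4.34% of all genes passed. Outside DUSP4, the differences lay between −0.31 (EGR1 in PD-1/LAG3 hybrids, adjusted p = 0.82) and 0.21 (FOS in PD-1/CD40L hybrids, adjusted p = 0.803). For SPRY4 the 7 intervals reached no further than −0.28 and 0.25, for SPRY2 −0.24 and 0.29, for ETV5 −0.33 and 0.16, for DUSP6 −0.34 and 0.22, and for PHLDA1 −0.14 and 0.16 on the log2 scale. FOSL1 in PD-1/LAG3 hybrids had the smallest unadjusted p (0.00076, log2 −0.29, adjusted p = 0.609).

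Plain droplets alone moved none of the 10 genes past the test. Of 10 tests between plain DSLB hybrids and DSLB-free tumoroids 0 passed, against 0.0109% of all genes, and 1 had an unadjusted p under 0.05, against 6.1% of all genes. That was SPRY2 (log2 −0.21, 95% interval −0.39 to −0.028, adjusted p = 0.803). SPRY2, SPRY4, DUSP6 and EGR1 were each lower in the 3 plain DSLB libraries than in the 3 DSLB-free libraries without overlap, yet none passed. The share of all genes that separated in this way was not counted, so these gaps are only a description. The difference was log2 −0.14 for SPRY4 (95% interval −0.30 to 0.014, adjusted p = 0.856) and −0.15 for DUSP6 (adjusted p = 0.84). FOS had the largest positive difference (log2 0.38, adjusted p = 0.886) and EGR1 the largest negative one (log2 −0.24, adjusted p = 0.886).

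The 9 hybrid groups, of which 8 carried protein, were also averaged. Hybrids differed from DSLB-free tumoroids in 7 of the 9 genes other than DUSP4, against 34.7% of all genes. Of these, 6 were lower (17.1% of all genes) and JUN was higher (17.6% of all genes). The log2 differences were −0.54 for SPRY4, −0.43 for EGR1, −0.42 for DUSP6, −0.40 for SPRY2, −0.33 for ETV5 and −0.18 for PHLDA1, and 0.24 for JUN, with adjusted p between 1.39e-08 and 0.00891. JUN lost its call without DSLB-free replicate 3 (log2 0.18, adjusted p = 0.114) and with limma on log2(TPM + 1) (0.097, adjusted p = 0.288). With a gene length trend removed, the difference of PHLDA1 was −0.01 (adjusted p = 0.882).

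In the order of group means, plain DSLB hybrids and DSLB-free tumoroids held the 2 highest places for SPRY4, SPRY2, DUSP6, ETV5, PHLDA1 and DUSP4, and the 2 lowest for JUN. Neighbouring groups mostly overlapped. All 9 neighbour pairs did so for FOS, JUN, EGR1 and DUSP4, 8 of 9 for DUSP6, ETV5 and PHLDA1, and 7 of 9 for SPRY2, SPRY4 and FOSL1. The groups were sorted by these same means and the share of all genes with such gaps was not counted, so the gaps are only a description. For SPRY4 the gaps were those between plain DSLB hybrids and DSLB-free tumoroids and between PD-1/ICOS and plain DSLB hybrids. PD-1/LAG3 hybrids had the lowest mean for SPRY4, SPRY2, EGR1, FOSL1, FOS and DUSP4. Without PD-1/LAG3 replicate 3 this held for 4 of the 6, since its mean of 55.2 CPM for SPRY4 was then above that of PD-1/CD2 hybrids (54.1 CPM) and its mean of 13.4 CPM for SPRY2 above that of PD-1/CTLA4 hybrids (13.3 CPM).

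**Figure D4:**
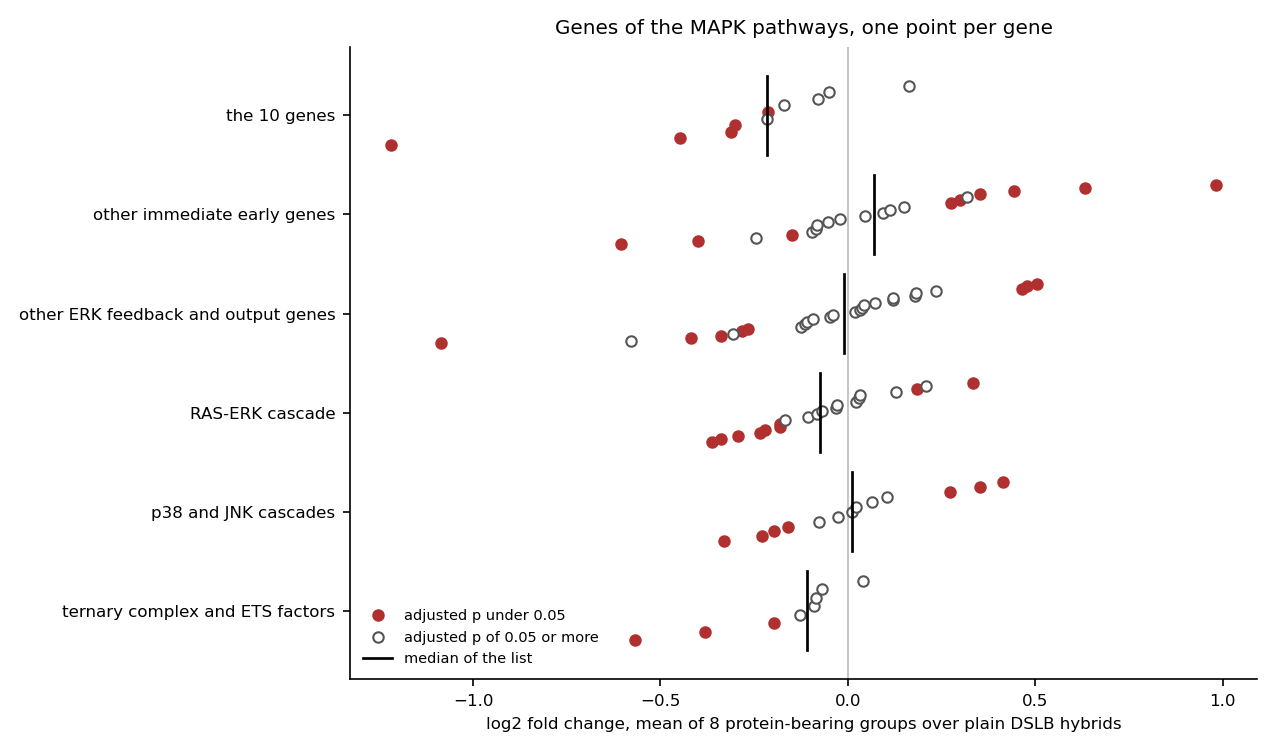
log2 fold change of the mean of 8 protein-bearing groups over plain DSLB hybrids (x axis) for each tested gene of 6 lists (y axis), filled where the edgeR adjusted p was under 0.05, with a black line at the median of each list. The median of the 10 genes was −0.21, and the other medians lay between −0.11 and 0.07.

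In the other lists of the pathway, genes passed in both directions between the 8-group mean and plain DSLB hybrids, with 30.8% to 53.8% of a list called, beside 36.9% of all genes. Of 20 other immediate early genes tested, 6 were higher and 3 lower (median log2 0.07). ATF3, a stress-induced relative of the AP-1 factors, was 13.1 ± 1.34 CPM in protein-bearing hybrids (SD, n = 24) and 6.596 ± 1.04 CPM in plain DSLB hybrids (SD, n = 3), log2 0.98 and adjusted p = 1.75e-09. JUND, the constitutive JUN family member, was higher by log2 0.44 (adjusted p = 1.64e-05). CCN1, a secreted matrix protein, was lower by log2 −0.61 (adjusted p = 5.14e-11), and IER5 by log2 −0.40 (adjusted p = 1.94e-04). Of 26 other genes of ERK feedback and output, 3 were higher and 5 lower (median −0.01). SPRY1, another Sprouty gene, was lower at 42.4 ± 2.17 CPM in protein-bearing hybrids and 51.0 ± 1.38 CPM in plain DSLB hybrids (log2 −0.27, adjusted p = 1.79e-05). EMP1, a membrane protein induced by growth factors, was lower by log2 −1.08 (adjusted p = 1.27e-10), while DUSP8, a phosphatase of JNK and p38, was higher by 0.50 (adjusted p = 9.97e-06) and TGFA, a ligand of the EGF receptor, by 0.46 (adjusted p = 6.27e-05).

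Among 20 genes of the RAS-ERK cascade, 2 were higher and 7 lower (median −0.08). MAPK3, which encodes ERK1, was higher (log2 0.34, adjusted p = 6.75e-05), and the scaffold KSR1 (−0.18, adjusted p = 0.00662), the ERK-activated kinase RPS6KA3 (−0.29, adjusted p = 8.23e-04) and the phosphatase PTPN11, which relays receptor signals to RAS (−0.23, adjusted p = 0.0011), were lower. Of 13 genes of the p38 and JNK cascades, 3 were higher and 4 lower (median 0.01). The kinases MAP2K6 (0.27, adjusted p = 7.20e-04) and MAPK13 (0.41, adjusted p = 4.09e-05) were higher, and MAPK14, the main p38 kinase (−0.23, adjusted p = 1.48e-04), and MAP2K7 (−0.20, adjusted p = 0.0019) were lower. Of 8 factors in a list of the ternary complex, its cofactors and the ETS family, to which CREB1 was added, 3 were lower and none higher (median −0.11). MRTFB (−0.57, adjusted p = 1.38e-05) and CREB1 (−0.38, adjusted p = 2.67e-05) were furthest. MRTFA (−0.13, adjusted p = 0.0562) and ETS2 (0.04, adjusted p = 0.396) did not pass in this comparison. Beside these lists, 5 of 9 heat shock chaperone genes were lower and 1 was higher, of which HSPH1 was furthest (log2 −0.78, adjusted p = 1.08e-13). In the co-ligand comparisons with PD-1 hybrids, none of the other immediate early and feedback genes passed.

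Genes whose level ran most alike with each of the 10 were sought among 13730 genes with a mean count of at least 50, by Pearson's r of log2 CPM over 30 libraries, a description in which the split between controls and protein-bearing hybrids weighs heavily. For SPRY4 these were SNED1 (r = 0.948) and MYO10 (r = 0.944), for ETV5 AHR (r = 0.929) and AHCYL1 (r = 0.926), for DUSP6 CCN2 (r = 0.905) and PALLD (r = 0.88), and for SPRY2 DMD (r = 0.826) and FGF2 (r = 0.826). For PHLDA1 they were SOX4 (r = 0.824) and FBXO45 (r = 0.813), for FOSL1 NPAS2 (r = 0.799) and SPRED2 (r = 0.764), for JUN IER5L (r = 0.799) and MUS81 (r = 0.789), and for EGR1 SETD1A (r = 0.784) and PTPN3 (r = 0.772). FOS had no close match, with RIBC1 (r = 0.57) and VWA5A (r = 0.537) first, and for DUSP4 ZC3H14 (r = 0.752) and DCUN1D3 (r = 0.747) came first.

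**Figure D5:**
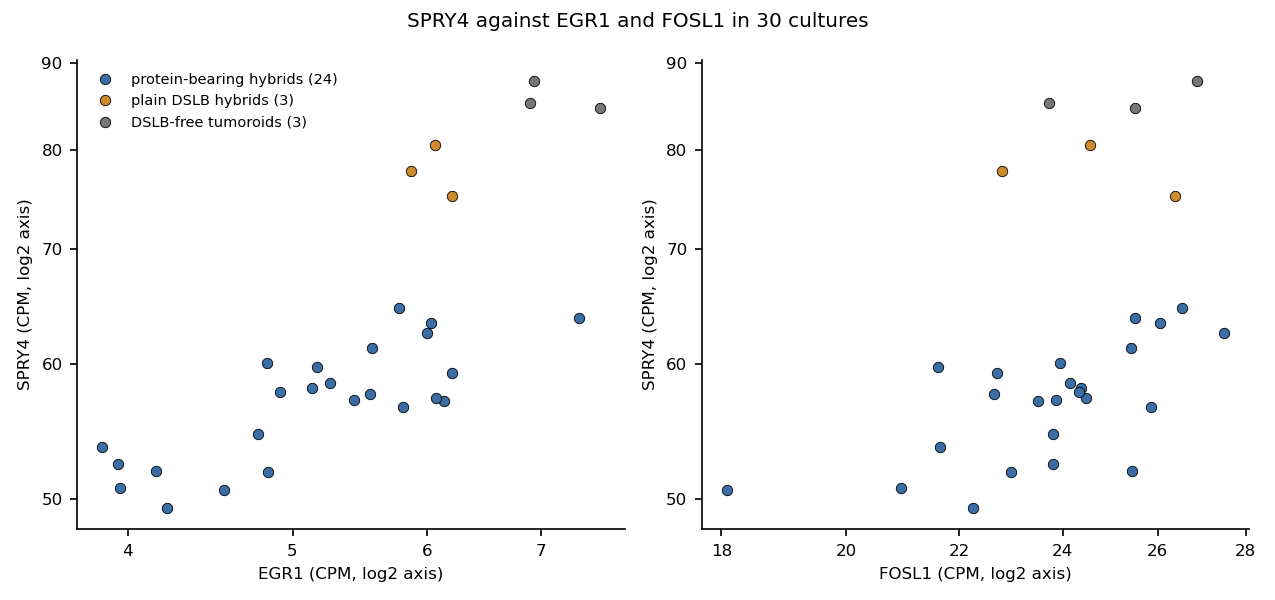
SPRY4 (y axis) against EGR1 (left) and FOSL1 (right) in CPM on log2 axes, 1 point per culture, 24 of protein-bearing hybrids in blue, 3 of plain DSLB hybrids in orange and 3 of DSLB-free tumoroids in grey. Within the blue points SPRY4 rises with EGR1 (r = 0.793) and with FOSL1 (r = 0.644), and the control points lie above all blue points.

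Control and protein-bearing libraries formed separate clusters, so the genes were related to each other only within the 24 protein-bearing libraries, over 45 pairs of the 10 genes. SPRY4 followed EGR1 (Pearson's r = 0.793, permutation p = 1e-05, the smallest that 100000 resamples can give, adjusted p = 4.50e-04; Spearman's rho = 0.679, permutation p = 0.00045, adjusted p = 0.0202). Without the 2 libraries farthest from the EGR1 median r was 0.778, and within groups, after subtracting group means, it was 0.721. SPRY4 also followed FOSL1 (r = 0.644, permutation p = 0.00061, adjusted p = 0.0137; rho = 0.618, permutation p = 0.0017, adjusted p = 0.0382), with r = 0.567 without the 2 farthest libraries and 0.54 within groups. No other pair passed after adjustment, and r was positive in 33 of 45 pairs with a median of 0.149. SPRY4 with ETV5 had r = 0.513 (permutation p = 0.0111, adjusted p = 0.138), SPRY4 with DUSP6 r = 0.286 (adjusted p = 0.616) and SPRY4 with SPRY2 r = 0.144 (adjusted p = 0.752). Libraries of 1 group are not independent of each other, and replicate 1, most often highest in EGR1, was also highest in SPRY4 in 6 of the 8 groups.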

How the data were processed

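RNA of 30 PANC-1 cultures (100000 cells each in the study's methods, 50000 to 100000 in the labels, 150 ng of RNA, directional library kit, single reads) was sequenced. Per the labels and the study's methods, the authors checked and trimmed reads (FastQC 0.11.2 and Trim Galore 0.3.3, and SAMtools 1.3.1, in the submitters' processing notes), aligned them to hg38 with STAR and quantified genes with RSEM. Neither the release of the annotation nor how strand was set is stated, so genes that share reads with an overlapping or antisense gene are uncertain. The deposited files hold expected counts, TPM and effective length for each gene and library. TPM as deposited scales by length and by each library's total, so it carries no depth.

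Rounding made the expected counts whole, and genes with low counts were removed by edgeR's filter (minimum count 10, here 0.246 CPM in 3 libraries), which left 18424 of 60483 genes. One model with the 10 groups was fitted to all 30 libraries with TMM factors and edgeR's robust quasi-likelihood test (edgeR 4.0.16, limma 3.58.1, R 4.3.3). P-values were adjusted by Benjamini-Hochberg over all genes of a comparison, with a threshold of 0.05, and intervals are 95%. Levels are CPM. Log2 fold changes are those of the fitted models. Log2 CPM, used for the correlations and the gene length trend, were computed with a prior count of 2. The study compared pairs with DESeq2, which was run as an alternative (DESeq2 1.42.0), as were RLE size factors, limma-voom, limma on log2(TPM + 1), no filter, a mean count of at least 100, a gene length trend removed (spline with 5 degrees of freedom), a threshold of 0.1, a replicate block, pairs fitted alone, and leaving out libraries. Scripts were tested on simulated data. Coordinates of genes are those of GENCODE on GRCh38, and gene names were found for 56321 of 60483 identifiers. Correlations were tested with SciPy 1.17.1.

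The genes described and the lists were chosen with earlier results of these data known. All 10 genes were named in every comparison, and of the other lists those with the smallest adjusted p over the 10 groups. The replicates are parallel cultures of 1 line, so p-values measure only the spread between such cultures. No pair of libraries of the same group agreed within sampling noise, and pairs from different groups were not compared in this way.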

Additional observations from a re-analysis of the deposited data

How the results depend on the processing

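No gene named with a fold change changed direction past the threshold under any alternative. Among co-ligand comparisons with PD-1 hybrids, where 0 of 70 tests passed, 1 passed in several settings, each time ETV5 in PD-1/CD27 hybrids. These were DESeq2 on all libraries (4.34% of all genes passed in this pair), a gene length trend removed (6.85%) and a threshold of 0.1. The others were edgeR on 6 libraries (6.1%) and DESeq2 on 6 libraries (8.54%), against 2.29% in the main fit. Without the 4 libraries that stood apart 1 passed, ETV5 in PD-1/CTLA4 hybrids (adjusted p = 0.0467). There 6.45% of all genes passed, against 0.0434% with all libraries. The cause was not tested. Of the 10 genes, 8 differed among 10 groups and 0 among the 8 protein-bearing groups only, an alternative chosen after seeing the data, and with both control groups as reference, also chosen after seeing the data, 8 were called (50.4% of all genes) against 5 with plain DSLB hybrids alone (36.9%). These counts include DUSP4, as do the counts of genes and of 80 tests below. Leaving out 1 library gave 6 to 9 genes among 10 groups (6 without DSLB-free replicate 1 or replicate 3), 0 for co-ligands, 21 to 34 of 80 tests against plain DSLB hybrids (21 without plain DSLB replicate 1), 4 to 6 genes for the mean of 8 groups, 6 to 8 for the mean of 9 hybrid groups, and 0 for plain DSLB hybrids against DSLB-free tumoroids. The share of all genes was not counted in the fits with 1 library left out. Without a filter on low counts 21 of 80 tests passed. The share of all genes that passed in a pair was then 8.28% (PD-1/ICOS) to 14.7% (PD-1/CTLA4), against 19.6% to 34.2% in the main fit. At a threshold of 0.1, 38 of the 80 tests passed, and the share of all genes was not counted. With a replicate block the counts were 9 among 10 groups (42.1% of all genes), 0 for co-ligands, 34 of 80 against plain DSLB hybrids, 6 for the mean of 8 groups (37.4%), 8 for the mean of 9 hybrid groups (35%) and 0 for plain DSLB hybrids against DSLB-free tumoroids, and the block added calls of JUN, among 10 groups (adjusted p = 0.0194), for the mean of 8 groups (adjusted p = 0.0317) and in PD-1/ICOS hybrids (adjusted p = 0.0226). The share of all genes that passed in a pair with plain DSLB hybrids under the block was 20.2% (PD-1/ICOS) to 34.9% (PD-1/CTLA4). On log2(TPM + 1), 12 of 48 named fold changes lost their calls, among them DUSP6 in PD-1/CD40L hybrids (adjusted p = 0.0548). Across all genes the replicate numbers were not taken as pairs, although replicate 1 was the lowest JUN library in 8 of 8 protein-bearing groups, since 17 of 135 same-numbered pairs correlated over 0.1 and 13 of 30 libraries correlated best with their own number. Depth limits DUSP4 and FOS, and counts and intervals cover sampling and replicate spread only.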
